A study of Mus musculus with 6 samples.

Results

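The genes described here encode the small-subunit processome and the later assembly factors of the 40S ribosomal subunit. They were chosen as a list of 43 genes by the known role of their products, and a gene was matched to the array by its current or former symbol through probesets that the platform annotation pairs with 1 gene. Of the 43 genes, 42 were measured and 1, Rrp7a, was not analysed here, among 19939 genes with such a probeset in all. All 42 passed the filter on dim genes, which left 14954 tested genes. Where a gene had more than 1 probeset, the one with the highest mean over all 6 arrays stood for it. The members were chosen by role with their log2 differences between ethanol and saline on these arrays already known, so these differences count as values that chose them. They are given as a description of these genes and are no test of the list.

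The samples were whole brains of male C57BL/6J pups, an inbred laboratory strain, at postnatal day 7. The ethanol group received 2 subcutaneous doses of 2.5 g/kg, as 20% ethanol in saline, 2 h apart, and the control group received the saline vehicle alone. Brains were taken 4 h after the first injection, and the dam was away from the litter during the injections in both groups. Each array held RNA of 3 pups, pooled across litters, so that the 2 ethanol arrays (numbered 2 and 4) and the 4 saline arrays (1, 3, 5 and 6) stand for 18 mice, and the spread between individual pups was not measured. Each ethanol pup had a littermate among the saline pups, but the array numbers do not say which arrays share litters. Levels are log2 intensities on an Affymetrix whole-transcript array, given with the SD over arrays. Differences are ethanol minus saline on the log2 scale, with the standard error (SE) of a limma fit across all tested genes. With so few arrays, the precision of each value is limited by their number.

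Ribosome production begins in the nucleolus, where RNA polymerase I makes a long precursor of the 18S, 5.8S and 28S ribosomal RNAs. The small-subunit processome assembles on the 5′ end of this precursor while it is still being made. Its UTP-A and UTP-B subcomplexes and the U3 small nucleolar RNA, with its box C/D proteins, fold the precursor and prepare it for the cuts that release the 18S RNA. Late factors then accompany the pre-40S particle out of the nucleus and leave it as it matures in the cytoplasm. In the young brain this supplies ribosomes to dividing precursors and to neurons that are growing axons and dendrites.

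Most of these genes had slightly lower levels on the ethanol arrays. Of the 42 measured genes, 40 had a log2 difference below 0, where 58.6% of all tested genes did, and 2 (Nol6 and Riok2) had one above 0. The median difference was -0.15, or 9.68% lower, against -0.02 for all tested genes. Both ethanol arrays lay below all 4 saline arrays for 26 of the 42, or 61.9%, against 15.0% of all tested genes, and above all of them for 0, against 7.68%. Only Ltv1, a factor of the late pre-40S particle, passed the test across all genes (limma, Benjamini-Hochberg adjusted p under 0.05). It fell by 35.2%, and 0.0201% of all tested genes were lower by that rule (0.0802% changed in either direction). At an unadjusted p under 0.05, 21 members were lower and 0 higher, against 8.45% and 3.85% of all tested genes. Since the list was chosen with this contrast known, nothing is read from the counts beyond the description.

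**Figure D1:**
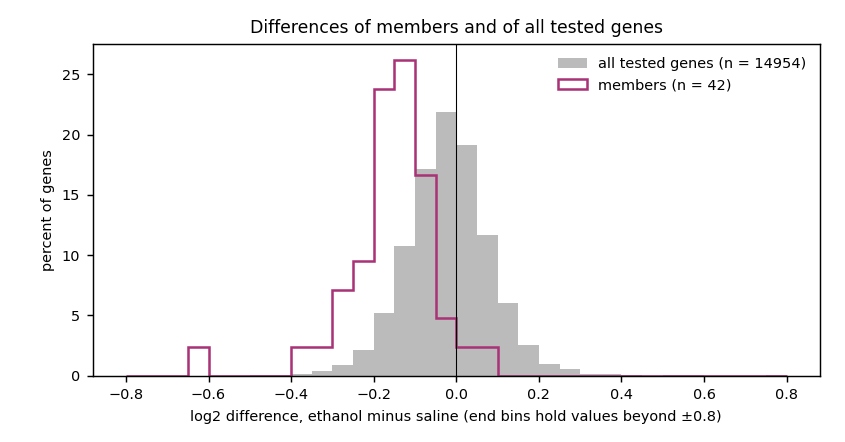
Percent of genes (vertical axis) in bins of the log2 difference between ethanol and saline (horizontal axis), for all 14954 tested genes in grey and for the 42 measured processome and 40S assembly genes in outline. The outline is centred near -0.15 and the grey bars near -0.02, with Ltv1 alone at -0.63.

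The arrays themselves were much alike. Across the tested genes, which are not independent replicates, r between arrays was 0.995 to 0.999. The exception was saline array 3, whose score on principal component 1 (40.9% of the variance) was 13.5, with the other saline arrays between -2.13 and 2.95 and the ethanol arrays at -6.61 and -7.49. Its median level was 8.29, against 8.34 to 8.38 on the other 5 arrays. The processome and 40S assembly genes had a median difference of -0.05 between saline array 3 and the mean of the other saline arrays, which equals the -0.05 of all tested genes. Of the 42, 30 were below 0 and 12 above, against 10147 below and 4807 above among all 14954 tested genes. Ltv1 was among the 12, 0.28 above the other saline arrays. Without saline array 3, both ethanol arrays lay below all saline arrays for 30 of the 42 genes (23.8% of all tested genes), and 24 were lower at an unadjusted p under 0.05 (10.5%). Without ethanol array 4 the latter count was 11 (5.32%), with 1 ethanol array left, which is taken to vary like the saline arrays.

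The markers of the labelled tissue were present on every array. Snap25, a synaptic vesicle fusion gene, had a saline mean of 12.86 and the astrocyte water channel gene Aqp4 one of 11.18. Of 12 brain markers, 2 were lower at an unadjusted p under 0.05, Snap25 (-0.19 ± 0.06, SE) and the oligodendrocyte lineage gene Olig2 (-0.32 ± 0.07), 0 were higher, and the median was -0.02. Of the markers of dividing cells, 6 of 9 tested genes were below 0 and 3 above. Their median was -0.19, against -0.15 for the 42 members, and none of the 9 passed the adjusted threshold in limma. At an unadjusted p under 0.05, 5 were lower and 0 higher, against 8.45% and 3.85% of all tested genes. The same 5 (55.6%) had both ethanol arrays below all saline arrays, against 61.9% of the members and 15.0% of all tested genes. Those 5 were the mitotic kinase genes Aurka (-0.25 ± 0.08), Bub1 (-0.19 ± 0.06) and Cdk1 (-0.21 ± 0.08) and the replication genes Mcm2 (-0.19 ± 0.07) and Pcna (-0.20 ± 0.08). Mki67, the usual proliferation marker, had -0.10 ± 0.07. The 3 above 0 were Birc5 (0.10 ± 0.06), Top2a (0.04 ± 0.06) and Mcm5 (0.03 ± 0.06). Birc5 had both ethanol arrays above all saline arrays, but its mean of 6.00 was within the background range of the array. Pcna, Mki67, Birc5, Top2a and Mcm5 were named after their values were seen. The summed linear intensity of the 9 dividing-cell markers was 4620 to 5020 on the ethanol arrays and 5250 to 5490 on the saline arrays, and none was at 0. That of the 42 members was 17700 to 17900 and 19100 to 19900. The part of dividing cells in the lower levels of the assembly genes was not tested. In whole brain, fewer cells that make much of an RNA cannot be told apart from less RNA per cell. Of 9 pituitary markers 5 were tested, with a median of -0.17, and 4 were lower and 0 higher at an unadjusted p under 0.05. Those 4 were the hormone genes Gh (-1.52 ± 0.38), Cga (-1.20 ± 0.21) and Fshb (-0.17 ± 0.08) and the receptor gene Ghrhr (-0.16 ± 0.07). The mean of Fshb, 5.67, was within the background range of the array. Gh was at 7.65 and 5.72 on ethanol arrays 2 and 4 and at 7.70 to 8.52 with saline. Cga was at 7.19 and 6.06 against 7.66 to 7.93, so array 4 was much the lower for both genes. The summed intensity of the 5 pituitary markers was 325 to 566 on the ethanol arrays and 651 to 835 on the saline arrays. The part of these markers in the result was not tested. Choroid plexus, blood, and muscle and skin markers had medians of -0.01, -0.17 and -0.11 over 6 of 6, 2 of 6 and 3 of 7 tested genes. At an unadjusted p under 0.05, Sostdc1 of the choroid plexus list (-0.32 ± 0.07) and Acta1 of the muscle and skin list (-0.20 ± 0.06) were lower, and 0 were higher. Each had both ethanol arrays below all saline arrays. The summed intensity of the choroid plexus markers was 8750 to 8900 with ethanol and 8960 to 9620 with saline, and those of the blood markers (350 to 481 and 376 to 572) and of the muscle and skin markers (434 to 495 and 446 to 484) overlapped.

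The promoter sequence of some of these genes is shown because most members lay below saline together, and because promoter sequence played no role in their choice. RefSeq promoter windows (GRCm38.p6), from 250 bases before to 50 after the annotated start, were at hand for 33 of the 42 measured genes. The bases just before the start are printed for Ltv1 and Heatr1, the members with the smallest p, for Utp18 and Mphosph10, which led their subcomplexes, and for Imp4, whose level differed little. Capitals mark CACGTG (the E-box bound by MYC family proteins), CCGGAA or its reverse complement TTCCGG (the core of ETS factor sites) and TGACGT or ACGTCA (the core of CREB and ATF sites). The Ltv1 stretch lies at chr10:13193138-13193287 on the minus strand, Heatr1 at chr13:12395225-12395374 on the plus strand, Utp18 at chr11:93885767-93885849 on the minus strand, Mphosph10 at chr7:64392237-64392386 on the minus strand and Imp4 at chr1:34439679-34439828 on the plus strand. In the RefSeq gene table no gene covers these bases, and the Utp18 stretch ends 5′ where the neighbouring gene Mbtd1 begins.
Ltv1: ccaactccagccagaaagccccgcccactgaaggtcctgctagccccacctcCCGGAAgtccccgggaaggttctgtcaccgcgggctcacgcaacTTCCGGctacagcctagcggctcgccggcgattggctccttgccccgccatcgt
Heatr1: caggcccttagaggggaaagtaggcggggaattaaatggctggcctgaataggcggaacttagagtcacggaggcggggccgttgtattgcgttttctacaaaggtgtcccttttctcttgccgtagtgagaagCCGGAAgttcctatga
Utp18: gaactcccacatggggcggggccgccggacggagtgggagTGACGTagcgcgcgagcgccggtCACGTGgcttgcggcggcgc
Mphosph10: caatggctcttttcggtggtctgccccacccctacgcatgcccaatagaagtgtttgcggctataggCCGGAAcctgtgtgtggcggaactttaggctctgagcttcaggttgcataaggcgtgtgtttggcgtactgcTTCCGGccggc
Imp4: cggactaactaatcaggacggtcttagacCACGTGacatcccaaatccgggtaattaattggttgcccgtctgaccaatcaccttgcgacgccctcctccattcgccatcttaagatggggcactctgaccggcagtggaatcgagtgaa
Ltv1 and Mphosph10 each showed 2 matches to the ETS core in this stretch and Heatr1 showed 1, close to its start. Utp18 and Imp4 each showed 1 E-box, and Utp18 also showed 1 TGACGT. Further matches lie in the parts of the windows that are not printed. Ltv1 has its E-box and a match to TGACGT just after the start, and Heatr1 has an ETS core there. Utp18 has ETS cores at -106 and 8 from its start.

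Over the 33 windows, on both strands, CCGGAA was found in 19 (57.6%), against 24.4% of 11750 windows of tested genes and 14.9% of all 32851 windows of the table. CACGTG was found in 9 windows (27.3%, against 9.63% and 7.15%), those of Imp4, Ltv1, Nol11, Pno1, Tsr1, Utp18, Utp20, Wdr43 and Wdr46. TGACGT was found in 9 (27.3%, against 11.0% and 7.51%). CCAAT, the NF-Y box, was found in 17 (51.5%, against 38.3% and 37.4%), and GGGCGG, the GC box, in 22 (66.7%, against 60.3% and 35.7%). CATGCGC, from the NRF1 site, was in 3 (9.09%, against 6.41% and 3.91%), and AAGATGG, from the YY1 site, in 2 (6.06%, against 6.70% and 6.34%). The E-box, ETS and CREB letters thus stood in a larger share of these promoters than of those of tested genes, which had a similar base composition (median GC of 58.7% and 60.3%). The genes with an E-box had a median difference of -0.24 (n = 9) and those without -0.13 (n = 24), whereas tested genes had -0.02 with and without it. For the ETS core the order was the other way, with -0.15 in the 19 genes that hold it and -0.17 in the 14 that do not. These differences are the ones that chose the members, so both splits are a description only. A match is a description of the letters and not a bound site.

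**Figure D2:**
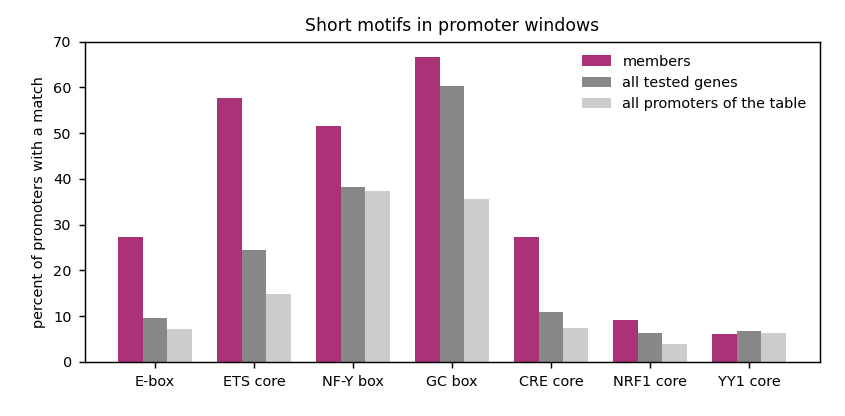
Percent of promoter windows (vertical axis) with at least 1 match to each of 7 short motifs on either strand, for 33 processome and 40S assembly genes, 11750 tested genes and all 32851 windows of the RefSeq table. The bars of the members stand above both others most clearly for the ETS core (57.6% against 24.4% and 14.9%) and the E-box (27.3% against 9.63% and 7.15%).

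UTP-A binds the precursor first and is also needed for its transcription, and it was the subcomplex with the lowest median difference, -0.24 over 5 genes. Heatr1, a large HEAT-repeat scaffold of UTP-A, was at 7.92 and 7.78 on ethanol arrays 2 and 4 and at 8.25, 8.17, 8.22 and 8.21 on saline arrays 1, 3, 5 and 6. Both ethanol arrays lay well under the saline arrays, which spanned only 0.07. Its difference was -0.36 ± 0.06 (SE), or 22.2% lower, and it did not pass across all genes (limma adjusted p = 0.0631). Wdr75, a WD-repeat subunit, was at 9.58 and 9.63 with ethanol and at 9.86, 9.86, 9.93 and 9.86 with saline, a difference of -0.27 ± 0.06 (limma adjusted p = 0.0953). Wdr43, another WD-repeat subunit, was at 8.54 and 8.60 with ethanol and 8.83, 8.80, 8.80 and 8.79 with saline. The groups did not overlap for either gene, and Wdr43 was 15.0% lower (-0.24 ± 0.06). Nol11, a subunit particular to animals, was at 9.50 and 9.41 with ethanol and 9.65, 9.63, 9.64 and 9.63 with saline, with a difference of -0.18 ± 0.06. Its saline arrays agreed within 0.02, and the ethanol arrays lay below them. Utp15 was the exception, at 8.51 on ethanol array 2 but 8.72 on array 4, where the saline arrays had 8.72, 8.72, 8.76 and 8.71. The groups overlapped for Utp15, and its difference was -0.11 ± 0.07, or -0.01 without ethanol array 2.

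**Figure D3:**
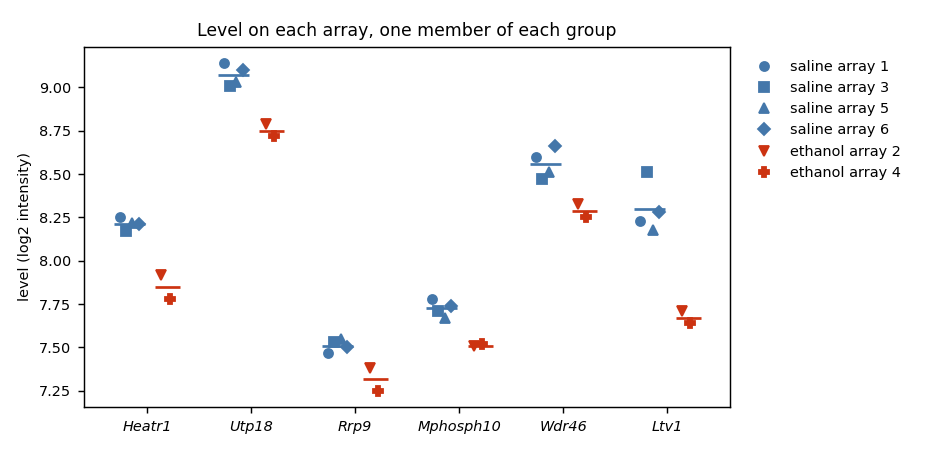
Level in log2 intensity (vertical axis) on each of the 6 arrays for the member with the smallest p in each group of roles, with saline arrays in blue, ethanol arrays in red and a line at each group mean. For all 6 genes both ethanol arrays lie below all saline arrays, by 0.47 for Ltv1 and 0.08 for Rrp9, and saline array 3 is the highest for Ltv1 at 8.51.

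UTP-B, the second large subcomplex, is built from WD-repeat proteins and Utp6 and had a median difference of -0.12 over 6 genes. Utp18 was at 8.79 and 8.72 with ethanol and at 9.14, 9.01, 9.03 and 9.10 with saline. The groups were separated by 0.23, and its difference was -0.32 ± 0.06, or 19.8% lower (limma adjusted p = 0.0761). Tbl3 was at 7.59 and 7.63 with ethanol and 7.88, 7.72, 7.83 and 7.69 with saline, a difference of -0.17 ± 0.07. Its saline arrays were more spread (SD 0.09) and the gap to the ethanol arrays was 0.06. Wdr36 was at 9.38 and 9.46 with ethanol and 9.54, 9.51, 9.64 and 9.54 with saline, and Utp6 at 8.54 and 8.52 against 8.60, 8.67, 8.66 and 8.64. Both were below all saline arrays by a small gap (0.05 and 0.06), with differences of -0.14 ± 0.06 and -0.11 ± 0.06. Wdr3 had -0.07 ± 0.06 and overlapping groups. Pwp2, the UTP-B subunit with the smallest difference, was at 7.75 and 7.87 with ethanol and 7.89, 7.74, 7.83 and 7.82 with saline. Its groups overlapped fully, and the 95% interval of its difference ran from -0.16 to 0.13, so that a difference as large as the median of these genes lies just inside it.

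The U3 particle carries the box C/D proteins that are common to small nucleolar RNAs and the U3-specific protein Rrp9. All 4 genes of this group had both ethanol arrays below all saline arrays, where 15.0% of all tested genes did. Their differences lay in a narrow range from -0.19 to -0.15. Snu13, a further box C/D core protein gene placed among the other assembly factors, had -0.03 ± 0.06 with overlapping groups. It was named after its values were seen. Rrp9 was at 7.38 and 7.25 with ethanol and 7.47, 7.53, 7.55 and 7.50 with saline (-0.19 ± 0.06). Nop56 and Nop58 are the paired scaffold proteins of the particle. Nop56 was at 10.92 and 10.95 with ethanol and 11.20, 11.00, 11.10 and 11.10 with saline (-0.16 ± 0.07), and Nop58 at 9.10 and 9.18 against 9.22, 9.27, 9.35 and 9.30 (-0.15 ± 0.06). For Nop56 saline array 3 was the lowest saline array and came within 0.05 of an ethanol array. Fbl, the gene of the 2′-O-methyltransferase fibrillarin, was at 8.94 and 8.85 with ethanol and 9.12, 8.97, 8.98 and 9.15 with saline (-0.16 ± 0.07). A further, dimmer probeset of Fbl, with a saline mean of 7.11, gave -0.05 ± 0.06 with overlapping groups, so the size of the Fbl difference is uncertain. None of the 4 genes passed across all genes, with limma adjusted p from 0.247 to 0.378. The U3 RNA itself, read by the Rnu3a probeset and looked at after its values were seen, was just above the background of the array (95% of olfactory and vomeronasal receptor genes had a mean below 6.21). It was at 6.40 and 6.21 on the ethanol arrays and 6.19 to 6.28 on the saline arrays, with overlapping groups (0.06 ± 0.07). The small nucleolar RNAs Snord118 and Snord57 were looked at in the same way. Snord118 had 0.25 ± 0.09 (limma adjusted p = 0.313), with both ethanol arrays above all saline arrays, as for 7.68% of all tested genes. Snord57 had -0.09 ± 0.06 with overlapping groups.

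Mphosph10, Imp3 and Imp4 form a small complex that joins the U3 RNA to the precursor. Mphosph10 was at 7.51 and 7.52 with ethanol and 7.78, 7.71, 7.67 and 7.74 with saline. The ethanol arrays were nearly equal and lay 0.16 under the lowest saline array, with a difference of -0.21 ± 0.06, or 13.8% lower (limma adjusted p = 0.193). Imp4 was at 9.32 and 9.21 with ethanol and 9.33, 9.38, 9.43 and 9.30 with saline, and Imp3 at 9.55 and 9.26 against 9.53, 9.35, 9.52 and 9.52. Both overlapped between groups, and for Imp3 the ethanol array 2 was the highest of all 6. Their differences were -0.09 ± 0.06 and -0.08 ± 0.08. The median of the 3 genes was -0.09, and it was -0.21 without ethanol array 2 and -0.04 without array 4. Whether the partners differ from each other was not tested.

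The remaining processome genes were 16 measured enzymes, scaffolds and RNA-binding proteins with a median difference of -0.12. Of these, 9 (56.2%) had both ethanol arrays below all saline arrays, against 15.0% of all tested genes. Wdr46, a scaffold protein, was at 8.33 and 8.25 with ethanol and 8.60, 8.47, 8.51 and 8.66 with saline (-0.27 ± 0.07, 16.9% lower). Nol10 was at 7.59 and 7.55 with ethanol and 7.80, 7.71, 7.80 and 7.76 with saline (-0.20 ± 0.06). The groups did not overlap for either gene, and Utp11, formerly named Utp11l, was likewise lower on both ethanol arrays, with 8.07 and 7.93 against 8.26, 8.27, 8.22 and 8.12 (-0.22 ± 0.07). Noc4l and Nop14, whose products bind each other in the processome, had the same difference of -0.18 ± 0.06. Noc4l was at 8.63 and 8.59 with ethanol and 8.86, 8.74, 8.77 and 8.79 with saline. Both ethanol arrays of each gene lay below its saline arrays, by 0.12 and 0.10. Utp20, a very large HEAT-repeat protein, had -0.18 ± 0.07 with a gap of only 0.03. Pdcd11, which serves both subunits, Krr1, an RNA-binding KH-domain protein, and Utp23 had small gaps as well, with differences of -0.12 ± 0.06, -0.12 ± 0.06 and -0.11 ± 0.06. Utp23 was within the background range of the array, with a mean of 5.69.

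Groups overlapped for the other 7 of these 16 genes. They include the RNA methyltransferase gene Emg1 (-0.15 ± 0.08) and Rcl1 (-0.12 ± 0.08) with its partner GTPase gene Bms1 (-0.05 ± 0.07). For Emg1 and Rcl1 the ethanol arrays differed by 0.30 and 0.26, array 4 being the lower, and array 2 lay among the saline arrays. Utp3 had -0.11 ± 0.07, Dcaf13 -0.07 ± 0.06 and Utp14a, a cofactor of a processome helicase, -0.05 ± 0.07. Nol6, which pairs with the unmeasured Rrp7a in the UTP-C subcomplex, was at 10.24 on both ethanol arrays and at 10.28, 10.09, 10.30 and 10.20 with saline. Its groups overlapped, and its difference was 0.02 ± 0.07 with a 95% interval from -0.13 to 0.17. Without saline array 3, which was the lowest for Nol6, it was -0.02. Within these 16 genes array 4 was the lower ethanol array for 14 of 16 genes, while over all 42 genes it was lower for 27 and higher for 15. Over all tested genes it was lower for 7208 and higher for 7744.

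**Figure D4:**
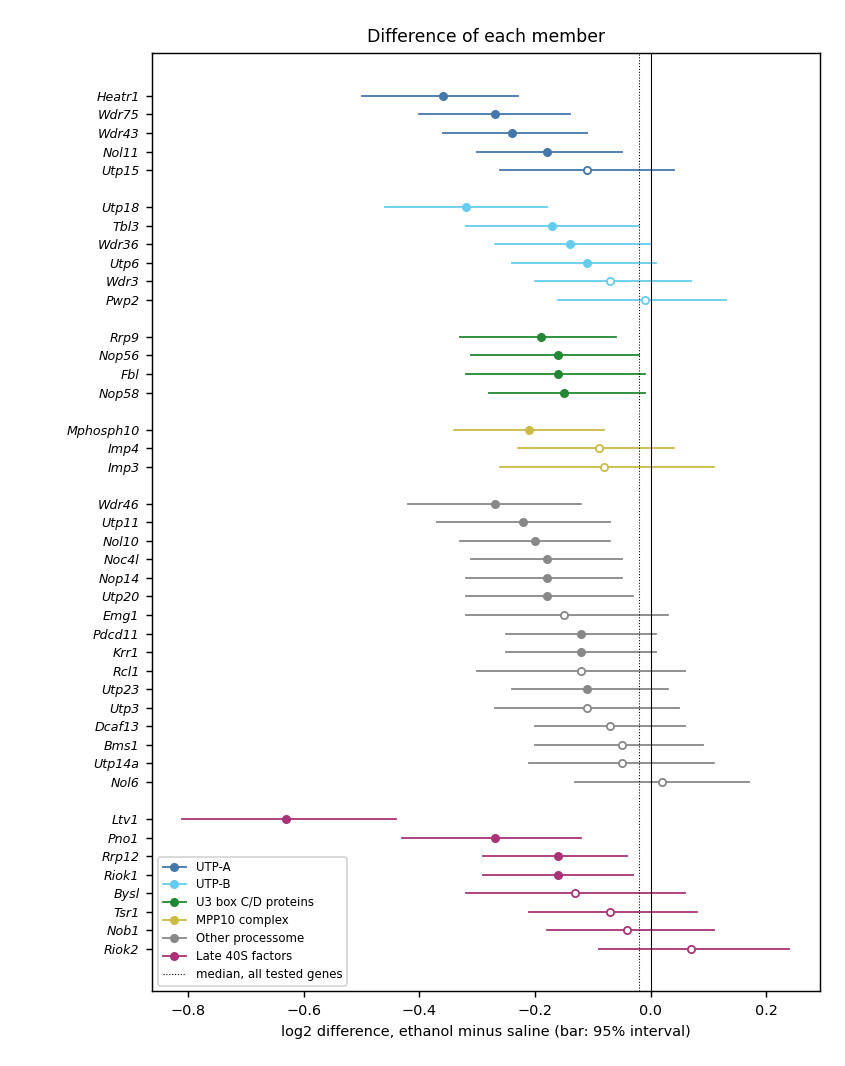
Log2 difference between ethanol and saline (horizontal axis) for each of the 42 measured genes, by group of roles, with the 95% interval of the limma fit. Filled points mark the 26 genes whose ethanol arrays both lie below all saline arrays, open points the other 16, and the dotted line the median of all tested genes at -0.02. Only Nol6 (0.02) and Riok2 (0.07) lie to the right of 0.

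The 8 late factors of the pre-40S particle had the widest range, from -0.63 to 0.07, with a median of -0.14. Ltv1, which holds back part of the pre-40S structure until it is phosphorylated and released, was at 7.71 and 7.64 with ethanol and at 8.23, 8.51, 8.18 and 8.28 with saline. The ethanol arrays lay 0.47 below the lowest saline array, the widest gap of all 42 genes, and saline array 3 was the highest. The difference was -0.63 ± 0.08 (SE), or 35.2% lower, with a limma adjusted p of 0.0149. Without saline array 3 it was -0.56 (adjusted p = 0.0105 in limma). It no longer passed without ethanol array 2 or 4 (0.0917 and 0.270), after centring of the arrays (0.0751) after quantile normalization (0.0615) or with no variance prior (0.316), and its difference was -0.59 to -0.66 in these fits.

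Other late factors lay closer to the rest of the list. Pno1, an RNA-binding protein that works beside the endonuclease Nob1, was at 8.51 and 8.73 with ethanol and 8.95, 8.88, 8.86 and 8.88 with saline (-0.27 ± 0.07, limma adjusted p = 0.164). Its ethanol arrays differed by 0.22 but both lay under the saline arrays. Rrp12, an export factor, was at 7.66 and 7.63 with ethanol and 7.79, 7.77, 7.87 and 7.80 with saline, and the kinase gene Riok1 at 7.96 and 7.94 against 8.13, 8.05, 8.10 and 8.15. Both had non-overlapping groups and a difference of -0.16 ± 0.06. For Bysl, Tsr1, a factor related to GTPases, and Nob1 the groups overlapped, with -0.13 ± 0.09, -0.07 ± 0.06 and -0.04 ± 0.07. Nob1, the endonuclease that makes the last cut at the end of the 18S RNA, was at 9.24 and 9.23 with ethanol and 9.24, 9.30, 9.36 and 9.18 with saline. Riok2, a kinase of the same family as Riok1 that was singled out after its values were seen, was at 9.80 and 9.84 with ethanol and at 9.57, 9.83, 9.80 and 9.79 with saline. Saline array 1 was low and the ethanol arrays were level with the other 3 saline arrays. Its difference was 0.07 ± 0.08, and 0.02 without saline array 1.

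**Figure D5:**
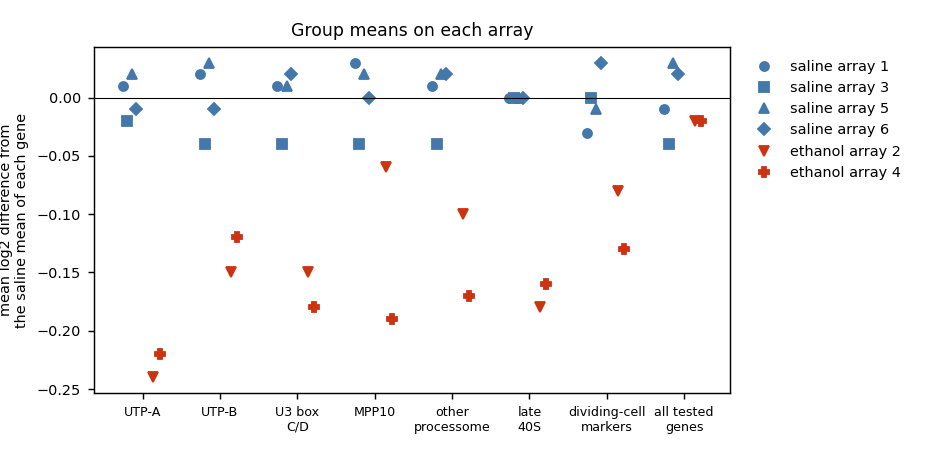
Mean over the genes of each group of the log2 difference from the gene's own saline mean (vertical axis), for each of the 6 arrays, with the dividing-cell markers and all tested genes beside them. In the 6 groups of processome and 40S assembly genes both ethanol arrays lie below all saline arrays, from -0.06 (MPP10, array 2) to -0.24 (UTP-A, array 2), while all tested genes have -0.02 on both. The dividing-cell markers also have both ethanol arrays (-0.08 and -0.13) below all saline arrays (-0.03 to 0.03).

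Other genes of 40S production lay less far below saline in their medians. They were listed by role and not by how they moved, though with earlier results of these data known. Of 24 further assembly factors, 6 were lower and 0 higher at an unadjusted p under 0.05, 7 had both ethanol arrays below all saline arrays, and the median was -0.06. The leading ones were Dnttip2 (-0.23 ± 0.07), Utp4, the UTP-A subunit missing from the list (-0.21 ± 0.07), Nol7 (-0.18 ± 0.06) and the helicase gene Dhx37 (-0.16 ± 0.06). Among 9 genes that build box C/D particles the median was -0.10, with 2 lower at that level, Nufip1 (-0.20 ± 0.06) and Nolc1 (-0.20 ± 0.06), followed by Ruvbl2 (-0.12 ± 0.06) and Znhit6 (-0.12 ± 0.06). Both ethanol arrays lay below all saline arrays for 5 of these 9 (55.6%), near the 61.9% of the members. Among 13 genes of the nuclear RNA exosome, which trims the precursor, the median was -0.06 and 2 were lower, Exosc1 (-0.24 ± 0.06) and Exosc9 (-0.17 ± 0.07), with Dis3 and Mtrex at -0.11 ± 0.06 each. Both ethanol arrays lay below all saline arrays for 4 of these 13 (30.8%). None of the genes of these 3 lists passed across all genes in limma. Against them stand 8.45% of all tested genes lower at an unadjusted p under 0.05 and 15.0% with both ethanol arrays below all saline arrays. Whether the 42 members differ from these further genes was not tested.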

How the data were processed

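RNA of whole brain was measured on 6 Affymetrix whole-transcript arrays, for each of which the authors deposited a processed value per probeset. Their range (4.10 to 14.9) is that of log2 intensities, as which the deposited values were read. Partek 6.6 is named in the submitters' processing notes, with background correction, normalization and summarisation not given in the sources used. Of 35556 probesets, 21789 had 1 gene symbol, and they covered 19939 genes. The dimmest 25% of genes (mean up to 5.55) were left out.

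Each gene was fitted with limma 3.58.1 in R 4.3.3 (lmFit and eBayes, treatment as the only term, two-sided, Benjamini-Hochberg over 14954 genes, 4 residual and 8.10 prior degrees of freedom), and the script was tested on simulated data. The members and lists were chosen with earlier results of these data known, and no set test was run. Values on every array are given for members past the threshold and, per group of roles, for up to 4 members with the smallest p and the 1 with the largest, and differences for the up to 4 genes of other lists with the smallest p. Further genes are marked as named after their values were seen. Alternatives were other filters, probeset rules, scalings, variance models and leaving out each array. Replicates are pools of separate pups, and p-values measure the spread between pools.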

Additional observations from a re-analysis of the deposited data

Results flagged for a closer look

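For 5 of the 42 measured genes 1 of the 4 saline arrays lay far from the other 3 (Dixon's ratio of gap to range, above its critical value at 95%), where chance flags about 1 in 20 groups. The share of all tested genes with such a flag was not counted, so the flags are no trait of these genes. Saline array 3 was the low one for Imp3 (9.35), Rcl1 (8.02) and Krr1 (8.24). It was the lowest of the 6 arrays for 5516 of the 14954 tested genes and for 4 of the 42 members. Wdr75 was high on saline array 5 (9.93), and Riok2 was low on saline array 1 (9.57).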

How the results depend on the processing

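The median difference of the measured members stayed below 0 in every alternative run, over 42 genes in each but one, since 38 remained with the dimmest 50% left out (-0.16). Leaving out single arrays moved it between -0.17 and -0.13. By leaving out single arrays, the count of genes lower at an unadjusted p under 0.05 ranged from 11 to 24 (with 5.32% to 10.5% of all tested genes), the count with ethanol below all saline arrays from 26 to 32 (15.9% to 29.2%; 28.1% where it was 32), and the medians from -0.27 to -0.22 for UTP-A, -0.14 to -0.11 for UTP-B, -0.19 to -0.15 for the box C/D genes, -0.21 to -0.04 for MPP10, -0.19 to -0.11 for the other processome genes and -0.18 to -0.11 for the late factors. The number of members passing across all genes, 1 in the report, ranged from 0 to 1, and that of all genes, 12 in the report, from 4 to 16. With the dimmest 50% left out, 3 members and 52 genes passed. With array weights 3 and 56 passed, and with a variance trend 2 and 43. After centring or quantile normalization 0 members passed, with 23 lower at an unadjusted p under 0.05 in both (6.91% and 6.76% of all tested genes). With no variance prior 0 members and 0 genes passed in limma, with 1535 genes at an unadjusted p under 0.05. Heatr1 passed with the dimmest 50% left out (0.0375), array weights (0.0276) and a variance trend (0.0440), and Utp18 under the first pair (0.0448 and 0.0459), as adjusted p in limma. Some differences changed sign: Nol6 to -0.00 with array weights and, over single arrays left out, within -0.02 (saline 3) to 0.05, Pwp2 within -0.08 to 0.05 (ethanol 2; 0.01 without saline 1), and without ethanol array 4 Imp3 to 0.07 (range from -0.22), Rcl1 to 0.01 (from -0.25) and Emg1 to 0.00 (from -0.29). The cause was not tested in any of these cases. No paired analysis was possible because the groups share no replicate number.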
